A study of Mus musculus with 6 samples.

Results

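Pax5, Ebf1, Ighm and Cd79a are 4 genes of the B lymphocyte lineage that were picked from a mouse lung tumour RNA-seq table because their levels are higher together in tumours of SD mice than in tumours of Ctrl mice. They were found by symbol, ignoring case, and all 4 had a row among the 10191 genes of the table. SD mice were placed in SD cages and Ctrl mice in home cages for 20 hours a day, from 14:00 to 10:00, during 7 weeks after a virus injection, and the lights came on at 8:00. Each group holds 3 libraries of lung tumour RNA. The labels do not spell out SD, while the title of the series names sleep deficiency, and neither the virus nor the age of the mice is given. Mice of both groups belong to the same engineered tumour model, per the design text. The genotype labels differ between samples in a running number, and the 6 samples were treated as 1 genotype.

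EBF1 and PAX5 are the transcription factors that specify the B cell lineage and hold cells in it. Ighm encodes the constant region of the mu heavy chain of immunoglobulin M, the first antibody class a B cell carries on its surface. CD79A, together with CD79B, is the signalling arm of the B cell antigen receptor, and its cytoplasmic tail carries the tyrosine motif that starts the signal. In lung, B cells sit in the blood, the interstitium and lymphoid aggregates. Ebf1 is not confined to B cells, since stromal and fat cell precursors also express it. Because the RNA comes from whole tumour tissue, more cells of a type and more RNA per cell cannot be told apart in any value below.

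The label of a B cell set was only partly borne out. Of 14 genes taken as defining markers of B cells, 6 had a row in the table, and 4 of these 6 are the genes under study. Cd79b and Cd37, which complete the 6, did not pass the test between the groups. The remaining 8, among them Ms4a1, Cd22, Ighd, Cr2, Fcer2a, Blk and Fcrla, are not analysed here. The 4 genes are therefore called by name below and not taken as a measure of B cell number. Ighm was the sole immunoglobulin gene in the table.

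Library totals, recovered from the deposited values, ran from 6511192 to 6968966 reads in SD and from 7021019 to 7417095 reads in Ctrl. Values are CPM, in which read numbers are divided by the library total, and 1 read was worth 0.135 to 0.154 CPM. A gene was tested with limma on log2(CPM + 1) and called at an adjusted p under 0.05, and 56.6% of the 10004 tested genes were called, 28.1% as higher and 28.5% as lower in SD. The median log2 fold change over all tested genes was -0.01. The first principal component of the tested genes held 77.0% of the variance and separated the groups. The first 60 rows of the table hold 50 genes whose values are not whole reads, mostly in SD columns, but none of the 4 genes is among those 60 rows and all of their values are whole reads. Nothing beyond the words for biological replicate says that libraries came from separate animals, so a p-value below reflects only how these libraries scatter, which may be technical.

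The levels of the 4 genes were what chose them, so they are given as a description without a test. Ebf1 (chromosome 11, 44617317 to 45008091, plus strand, mm10) stood at 27.8, 21.5 and 27.9 CPM in the SD libraries and at 10.9, 7.42 and 7.98 CPM in the Ctrl libraries. The means were 25.8 ± 3.67 CPM in SD and 8.76 ± 1.87 CPM in Ctrl, a ratio of 2.94, where ± here and below is the standard deviation over 3 libraries. Every SD library lay above every Ctrl library, and the second SD library was the lowest of its group.

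Pax5 (chromosome 4, 44524757 to 44710487, minus strand) stood at 23.7, 21.7 and 20.6 CPM in SD and at 4.69, 3.51 and 3.28 CPM in Ctrl. Its means of 21.98 ± 1.54 CPM in SD and 3.82 ± 0.760 CPM in Ctrl give a ratio of 5.75, the largest of the 4 genes and rank 52 of 10004 tested genes by this ratio. The gap between the groups was larger than the spread within either. In reads, these levels are 154, 151 and 138 in SD and 34, 26 and 23 in Ctrl. The exons of Pax5 overlap 2 genes on the opposite strand, Gm12462 by 125 and 5730488B01Rik by 636 of 8853 exon bases. The labels do not state a strand setting, so reads from those overlaps cannot be told apart.

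Ighm (chromosome 12, 113418558 to 113422730, minus strand) stood at 7.99, 7.46 and 7.32 CPM in SD and at 2.21, 3.37 and 3.42 CPM in Ctrl. Its means were 7.59 ± 0.350 CPM in SD and 2.999 ± 0.685 CPM in Ctrl, a ratio of 2.53. The SD libraries were the tightest group of any of the 4 genes, with a coefficient of variation of 4.61%, and the first Ctrl library was the lowest. Ighm rested on 49 to 52 reads per library in SD and 16 to 25 in Ctrl.

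Cd79a (chromosome 7, 24897381 to 24902197, plus strand) stood at 8.91, 9.47 and 6.58 CPM in SD and at 4.0025, 2.97 and 3.99 CPM in Ctrl. Its means of 8.32 ± 1.54 CPM in SD and 3.65 ± 0.594 CPM in Ctrl give a ratio of 2.28, the smallest of the 4. The groups did not overlap, although the third SD library, at 44 reads, came nearest to Ctrl. All SD libraries lay above all Ctrl libraries for each of the 4 genes, as they did for 30.0% of all tested genes. The groups did not overlap in either direction for 60.3% of tested genes. The choice of the 4 genes fixes their count, so nothing is read from it. By ratio, Ebf1, Ighm and Cd79a stood at ranks 425, 606 and 754 of 10004, and 10.0% of tested genes had a ratio of at least 2. With any 1 library left out, the ratio lay between 5.36 and 6.48 for Pax5, 2.73 and 3.35 for Ebf1, 2.24 and 2.72 for Ighm, and 2.08 and 2.52 for Cd79a.

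**Figure D1:**
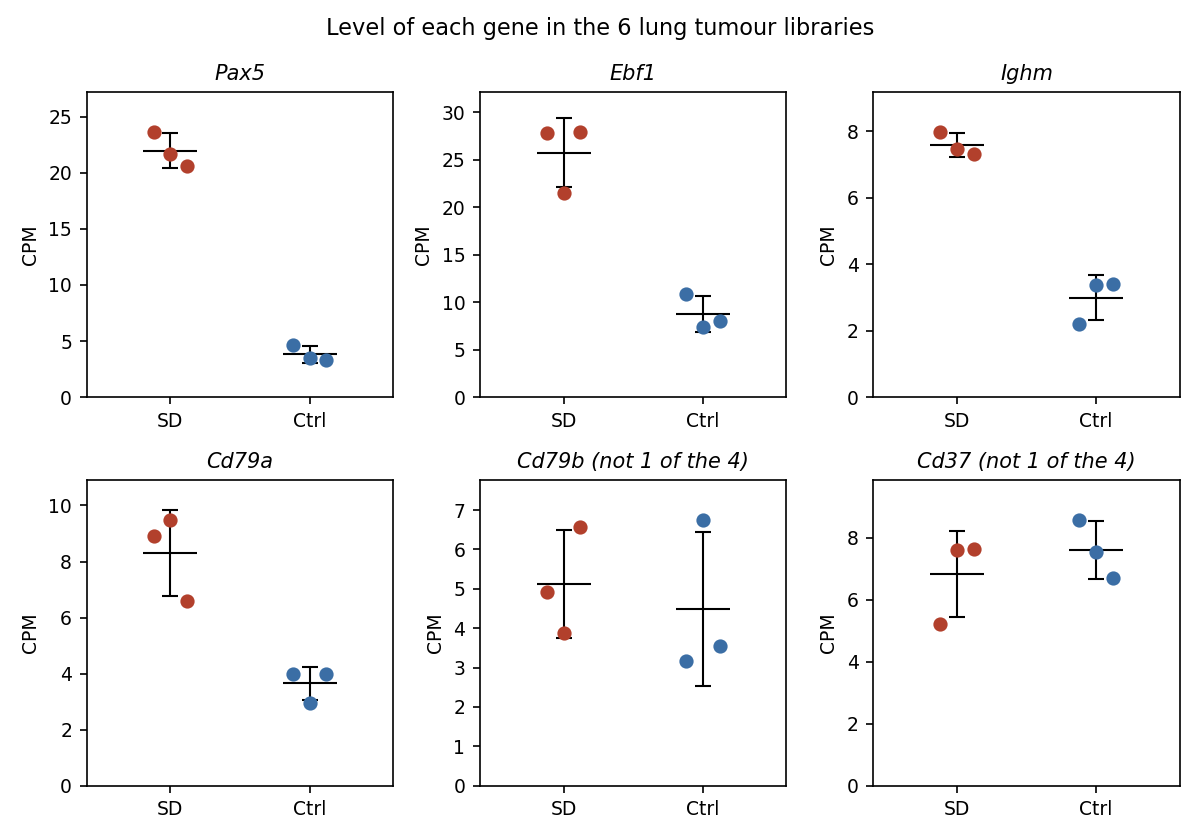
CPM in each of the 3 SD and 3 Ctrl libraries for the 4 genes and for Cd79b and Cd37, with the mean (bar) and standard deviation (whiskers) of each group; axes start at 0. For Pax5, Ebf1, Ighm and Cd79a every SD point lies above every Ctrl point, while the points of Cd79b and Cd37 overlap between the groups.

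The 250 bases before the RefSeq starts of 3 of the 4 genes are shown because these genes moved together and CD79A is a textbook target of both factors; Ebf1 has 2 starts, and Ighm had no entry. They run 5′ to 3′ on the gene's strand, in build GRCm38.p6, and capitals mark CG dinucleotides.
Pax5, chr4:44710695-44710944, minus strand: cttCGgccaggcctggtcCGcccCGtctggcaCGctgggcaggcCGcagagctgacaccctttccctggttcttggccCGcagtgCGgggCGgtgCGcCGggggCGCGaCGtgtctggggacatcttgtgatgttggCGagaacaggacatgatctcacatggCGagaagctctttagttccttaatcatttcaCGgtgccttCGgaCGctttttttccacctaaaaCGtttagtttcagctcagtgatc
Ebf1 start 1, chr11:44617850-44618099, plus strand: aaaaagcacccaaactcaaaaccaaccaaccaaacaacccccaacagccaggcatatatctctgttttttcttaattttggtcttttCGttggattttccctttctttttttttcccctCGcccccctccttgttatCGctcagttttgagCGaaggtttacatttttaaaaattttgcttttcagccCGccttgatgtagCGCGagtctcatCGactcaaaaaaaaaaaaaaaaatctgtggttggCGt
Ebf1 start 2, chr11:44619978-44620227, plus strand: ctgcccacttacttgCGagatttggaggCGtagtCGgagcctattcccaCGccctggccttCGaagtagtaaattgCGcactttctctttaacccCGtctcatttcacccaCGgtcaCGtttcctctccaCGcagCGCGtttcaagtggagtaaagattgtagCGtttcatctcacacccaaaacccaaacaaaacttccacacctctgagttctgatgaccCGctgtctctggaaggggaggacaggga
Cd79a, chr7:24897247-24897496, plus strand: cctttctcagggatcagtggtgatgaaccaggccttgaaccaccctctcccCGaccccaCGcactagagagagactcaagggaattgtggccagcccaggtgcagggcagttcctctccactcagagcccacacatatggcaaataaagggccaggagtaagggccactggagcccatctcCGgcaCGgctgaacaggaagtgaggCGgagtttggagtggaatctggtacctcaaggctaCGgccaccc

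The RefSeq starts do not match the gene bounds given above. Both Ebf1 windows lie inside the bounds of Ebf1, and the Cd79a window lies partly inside those of Cd79a. The Pax5 window lies outside the bounds of Pax5. The windows also differ in base composition. Pax5 holds 19 CG dinucleotides, more than in 80.3% of the 32851 RefSeq windows, and the Ebf1 starts hold 9 and 14. Cd79a holds 6, which is also the median of all windows, at the same GC content of 58.8% as Pax5. The EBF core CCCNNGGG, read on both strands, was in 0 of the 4 windows and in 11.8% of all windows. The PAX5 core GCGTGAC, also read on both strands, was in 0 of 4 and in 1.78% of all windows. Only these exact letters were searched, so a site that departs from them was not counted. Nothing about the presence of sites or the binding of either factor follows from their absence.

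The partner of Cd79a and a second surface gene gave the nearest comparison that the choice did not use. Cd79b, whose protein pairs with CD79A in the receptor, stood at 4.91, 3.87 and 6.58 CPM in SD and at 3.17, 6.74 and 3.56 CPM in Ctrl. The groups overlapped, and the log2 fold change was 0.19 with a limma adjusted p of 0.57. Cd37, a tetraspanin of mature B cells and other leukocytes, averaged 6.82 ± 1.38 CPM in SD and 7.60 ± 0.932 CPM in Ctrl, again with overlap (log2 fold change -0.15, limma adjusted p = 0.59). These were the 2 tested genes of 28 listed surface and antigen receptor genes of B cells, so limma called 0 of 2, edgeR and DESeq2 on recovered reads also called 0, and 0 had an unadjusted p under 0.05. The standard error of the log2 fold change was 0.27 for Cd79b and 0.22 for Cd37. The log2 fold change of Cd79b depended on single libraries, at 0.46 without Ctrl replicate 2 and 0.019 without Ctrl replicate 1, and it passed in neither case. A p that misses the threshold does not show that these genes had equal levels in both groups.

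Levels of different genes were compared per kilobase of exon. Exon length is the union of all annotated exons of a gene, 18313 bases for Ptprc and 1886 for Ighm. Where the union is longer than the transcripts present, the level is understated, so levels and ratios between genes depend on this length. In SD, Cd79a stood at 5.71 ± 1.05 CPM per kb, Ighm at 4.02 ± 0.186, Ebf1 at 2.64 ± 0.376 and Pax5 at 2.48 ± 0.174. In Ctrl the order was the same, with Cd79a at 2.51 ± 0.408, Ighm at 1.59 ± 0.363, Ebf1 at 0.898 ± 0.192 and Pax5 at 0.432 ± 0.0859 CPM per kb. The libraries of Ebf1 and Pax5, the last neighbours in this order, overlapped in SD and stood apart in Ctrl, and no other neighbours overlapped in either group. Cd79b, at 3.58 ± 0.952 CPM per kb in SD and 3.14 ± 1.37 in Ctrl, had a mean between Ighm and Ebf1 in SD and above Cd79a in Ctrl. Its libraries overlapped those of Cd79a in both groups and those of Ighm and Ebf1 in SD.

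**Figure D2:**
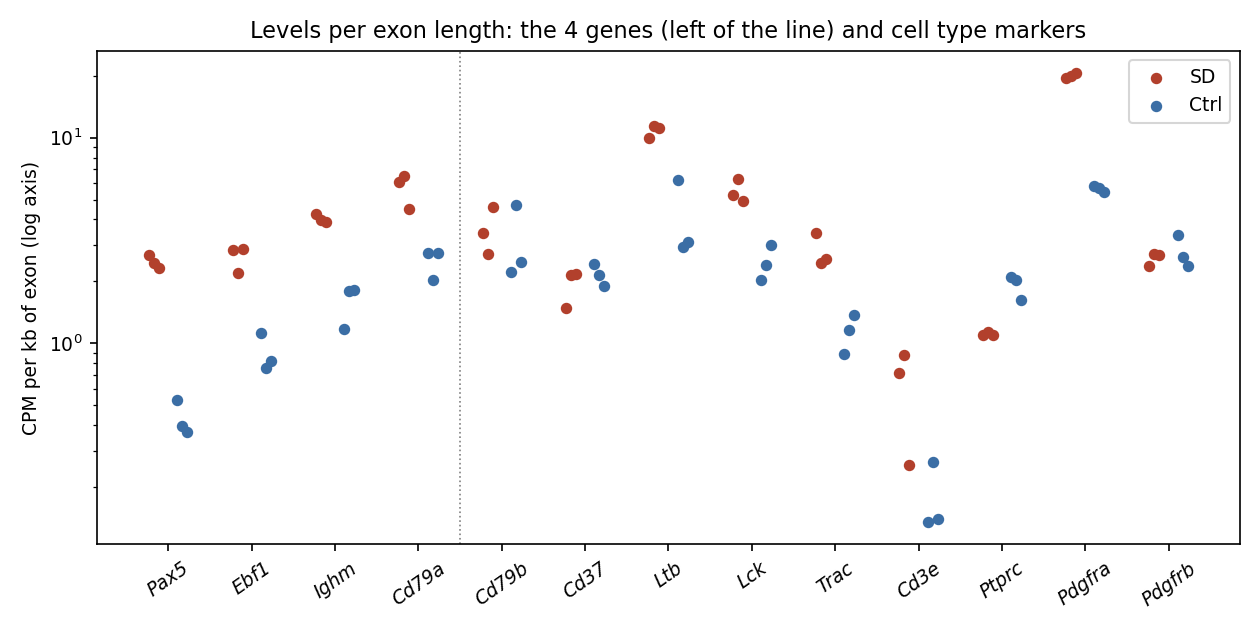
CPM per kb of exon on a log axis in each library, SD left and Ctrl right of each gene, for the 4 genes (left of the dotted line) and for markers of B cells (Cd79b, Cd37), lymphocytes (Ltb), T cells (Lck, Trac, Cd3e), all leukocytes (Ptprc) and stroma (Pdgfra, Pdgfrb). Ptprc is the one marker drawn whose SD points all lie below its Ctrl points.

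Ratios within a library set the genes against each other. The ratio of Ighm to Cd79a, per kb of exon, was 0.693, 0.609 and 0.860 in SD and 0.426, 0.878 and 0.662 in Ctrl, and the groups overlapped. The ratio of Pax5 to Cd79a was 0.437, 0.377 and 0.516 in SD against 0.193, 0.195 and 0.135 in Ctrl, without overlap. Ebf1 and Pax5 were near equal in SD, at ratios of 1.07, 0.901 and 1.23, whereas Ebf1 stood at 2.11, 1.92 and 2.21 times the level of Pax5 in Ctrl. These ratios restate the levels that chose the genes and are given only as a description. The ratio of Cd79a to Cd79b overlapped between the groups, at 1.78, 2.40 and 0.982 in SD and 1.24, 0.432 and 1.10 in Ctrl. Ptprc, which encodes CD45 and marks all leukocytes, fell to 20.3 ± 0.427 CPM in SD, against 35.1 ± 4.69 CPM in Ctrl (limma adjusted p = 6.3e-06). Per kb of exon, Ighm stood at 3.85, 3.48 and 3.55 times Ptprc in SD and at 0.557, 0.883 and 1.12 times Ptprc in Ctrl. Ighm was chosen for its rise and Ptprc fell, so the gap in this ratio was fixed in advance and nothing is read from it.

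**Figure D3:**
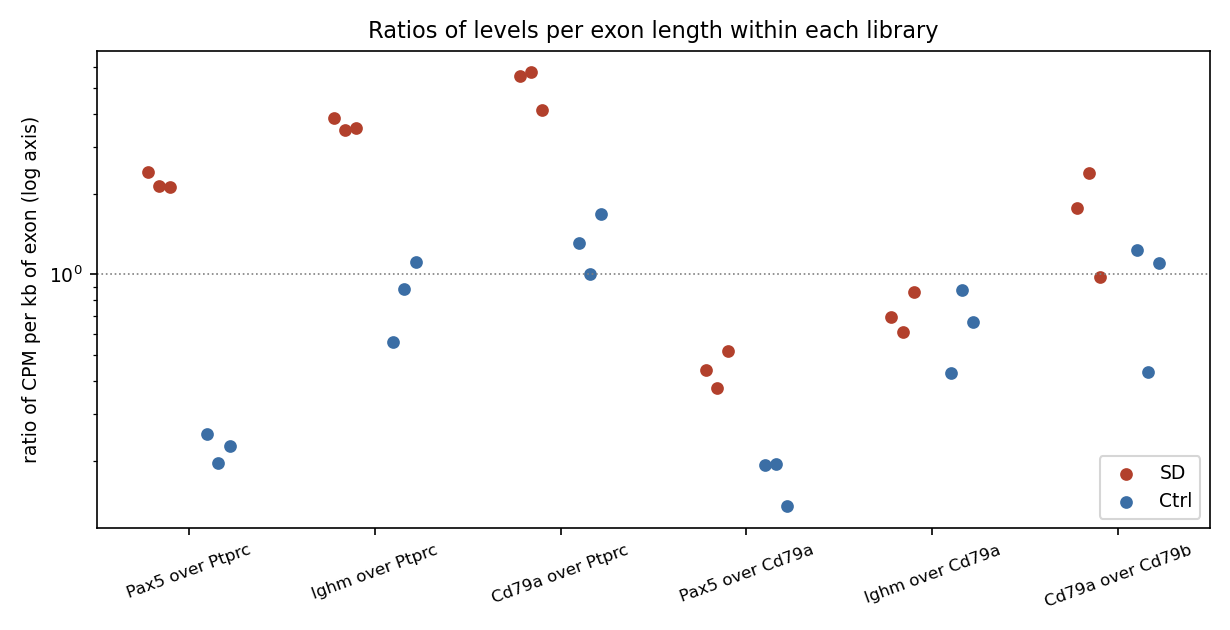
Ratios of CPM per kb of exon within each library on a log axis, SD left and Ctrl right; the dotted line marks a ratio of 1. The ratios to Ptprc and Pax5 over Cd79a do not overlap between the groups, while Ighm over Cd79a and Cd79a over Cd79b do. For the ratios to Ptprc, the choice of the genes and the fall of Ptprc fix this separation. Pax5 over Cd79a restates levels that chose both genes.

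Transcription factors that work beside EBF1 and PAX5 moved both ways, with more rises than falls. Of 33 listed factors of the B lineage, 28 were tested, 16 rose, 6 fell and 6 did not pass, with a median log2 fold change of 0.37 against -0.01 over all tested genes. Over all tested genes 28.1% rose and 28.5% fell, and the counts of each list below stand against these shares. Tcf4, which encodes the E protein E2-2, averaged 574 ± 12.6 CPM in SD and 217 ± 4.87 CPM in Ctrl (2.64-fold, limma adjusted p = 1.1e-24). Id3, an inhibitor of E proteins, averaged 404 ± 19.7 CPM in SD and 123 ± 11.5 CPM in Ctrl (3.28-fold). Ets1, a factor of lymphocytes and endothelium, rose 2.13-fold. The other E protein genes rose less, Tcf3, which encodes E2A, 1.47-fold and Tcf12, which encodes HEB, 1.29-fold. Bcl6 (1.11-fold, limma adjusted p = 0.047) and Pou2f2 (1.49-fold, limma adjusted p = 0.049) passed narrowly. Both lost their call under several alternatives, for example without SD replicate 1 (limma adjusted p = 0.18 and 0.070). Spi1, which encodes PU.1 and drives myeloid cells as well as early B cells, fell to 122 ± 14.5 CPM in SD, against 258 ± 19.0 CPM in Ctrl.

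Among regulators best known from lymphocytes and progenitors, some passed the test and some did not. Pou2af1, the B cell coactivator OCA-B, stood at 4.76, 1.58 and 2.84 CPM in SD and at 1.24, 0.539 and 0.570 CPM in Ctrl, and it passed at a limma adjusted p of 0.0031 on few reads. Bach2, a repressor that keeps B cells from becoming plasma cells, averaged 28.7 ± 1.88 CPM in SD and 14.0 ± 2.06 CPM in Ctrl (limma adjusted p = 4.9e-07). Myb, a factor of progenitors, rose 4.18-fold, Lef1, a factor of early B and T cells, 2.97-fold and Bcl11a, which early B cells need, 1.82-fold. The call of Bcl11a was lost without SD replicate 1 (limma adjusted p = 0.081) and without Ctrl replicate 3 (limma adjusted p = 0.088). Foxo1, which acts with EBF1 in pro-B cells, averaged 51.9 ± 2.32 CPM in SD and 46.8 ± 3.91 CPM in Ctrl and did not pass (limma adjusted p = 0.19). Ikzf1, which encodes IKAROS, averaged 8.64 ± 1.43 CPM in SD and 11.8 ± 2.54 CPM in Ctrl and did not pass either (limma adjusted p = 0.094).

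Genes of signalling below the B cell receptor mostly fell. Of 35 listed, 31 were tested, 5 rose, 17 fell and 9 did not pass (median log2 fold change -0.44). Pik3ap1, the adaptor BCAP, stood at 1.84, 2.15 and 3.29 CPM in SD and 22.4, 20.9 and 22.6 CPM in Ctrl (9.05-fold lower, limma adjusted p = 9.6e-14). No SD library came near the Ctrl range. Btk, a kinase that B cell maturation depends on, fell 2.90-fold, Ptpn6, the phosphatase SHP-1, 2.28-fold, and the kinases Syk and Lyn fell 2.01-fold and 1.47-fold. Pik3ap1, Btk, Ptpn6, Syk and Lyn are also expressed in myeloid cells. Among the genes that rose were Prkcb, protein kinase C beta (1.93-fold), and the kinase Fyn (1.48-fold). Vav3 also rose, but it is in the first 60 rows and holds values that are not whole reads. Blnk, the adaptor that B cells use below CD79A, was near the limit of the data at 1.08, 3.30 and 2.54 CPM in SD and 1.52, 1.08 and 0.712 CPM in Ctrl (limma adjusted p = 0.11, and 0.021 without SD replicate 1).

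Genes that PAX5 or EBF1 activate in B cells moved both ways, and several of them also stand in the list of factors. Of 24 listed, 11 were tested, and of these 5 rose, 2 fell and 4 did not pass, with a median log2 fold change of 0.61. The 7 called genes of 11 are a share near the 56.6% called over all tested genes. Id3, Lef1, Bach2 and Pou2af1 were given above, and Mef2c, a factor of B cells, muscle and endothelium, rose 1.75-fold. Nedd9, a docking protein of adhesion signalling, fell to 28.0 ± 2.95 CPM in SD, against 49.8 ± 1.58 CPM in Ctrl, and Irf8, a factor of B and myeloid cells, fell 1.44-fold (limma adjusted p = 0.0048, and 0.051 without SD replicate 2). Of 15 genes that PAX5 represses in B cells, 6 were tested, 3 rose, 1 fell and 2 did not pass (median 0.41). Notch1, a receptor that directs T cell fate, rose 1.37-fold, Csf1r, the macrophage growth factor receptor, 1.41-fold and Tcf7, a T cell factor, 1.39-fold, while Id2, an inhibitor of E proteins, fell 1.39-fold. In the families of the factors themselves, 2 of 11 other members were tested. Ebf4 averaged 12.8 ± 1.09 CPM in SD and 4.99 ± 1.34 CPM in Ctrl (2.56-fold higher, limma adjusted p = 1.0e-05), and Pax6 stood at 5.68, 6.31 and 2.99 CPM in SD and at 4.97, 4.18 and 4.27 CPM in Ctrl, with overlap.

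Genes of the stages before and after the mature B cell gave few tested members. Of 14 early B cell genes, 4 were tested and 3 rose. These 3 were Erg, a factor of blood stem cells and endothelium (2.59-fold), Kit, a growth factor receptor of progenitors and mast cells (2.35-fold), and Cd93, a marker of immature B cells and endothelium (1.83-fold), while Flt3 stood at 1.34 ± 0.103 CPM in SD and 1.10 ± 0.524 CPM in Ctrl. Rag1, Rag2, Igll1, Vpreb1 and Dntt, which belong to B and T cell precursors, had no row and are not analysed here. Of 15 plasma cell genes, 9 were tested, 0 rose, 3 fell and 6 did not pass. Sdc1, which encodes the plasma cell marker syndecan-1 and is also made by epithelium, fell to 102 ± 11.3 CPM in SD, against 253 ± 14.4 CPM in Ctrl (limma adjusted p = 8.0e-19). Txndc5, a protein folding enzyme of the secretory pathway, fell 1.84-fold, and Ell2, an elongation factor, 1.56-fold. Prdm1, which encodes BLIMP1, averaged 11.7 ± 3.38 CPM in SD and 8.64 ± 1.03 CPM in Ctrl, and it did not pass, nor did Eaf2, Pim2, Fkbp11, Sec11c and Derl3. After quantile normalization 6 of these 9 were called, 1 higher and 5 lower.

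Lymphoid tissue genes were few in the table. Ltb, lymphotoxin beta, a lymphocyte signal that builds lymphoid tissue, averaged 16.4 ± 1.22 CPM in SD and 6.18 ± 2.78 CPM in Ctrl (2.66-fold higher, limma adjusted p = 1.9e-06). It was 1 of 5 tested genes of 20 listed for germinal centres and lymphoid tissue, and the other 4, Cxcr4, Mybl1, Ccr7 and Cxcl12, did not pass (median 0.02). Of 16 genes of MHC class II presentation, 4 were tested, 0 rose and 2 fell. These were Ctss, the protease cathepsin S, which averaged 15.1 ± 2.02 CPM in SD and 68.4 ± 4.33 CPM in Ctrl, and Rfx5, a factor of class II promoters (1.89-fold lower). Rfxap and Rfxank did not pass.

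**Figure D4:**
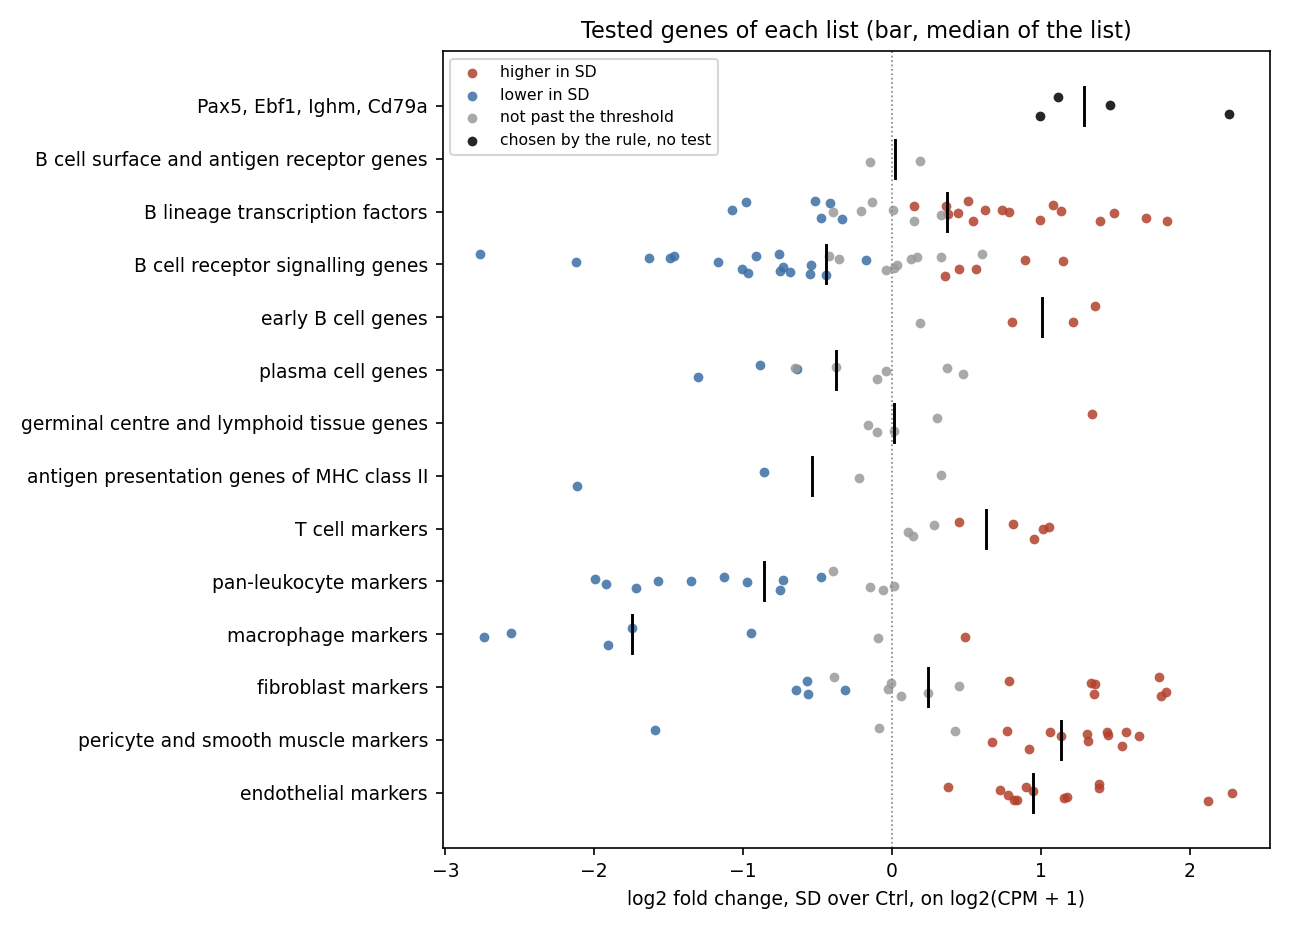
Log2 fold change, SD over Ctrl, of every tested gene in the lists drawn, for B cells above and other cell types below; each point is 1 gene, coloured by its limma call, and the black bars are list medians. The 4 chosen genes lie between 0.996 and 2.26, factors of the B lineage spread to both sides of 0, and receptor signalling, pan-leukocyte and macrophage genes lie mostly below 0.

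Markers of other cells moved in the same comparison, and their part in the levels of the 4 genes was not tested. Of 17 pan-leukocyte markers, 14 were tested, 0 rose and 10 fell, among them Lcp1 (3.82-fold) and Laptm5 (4.39-fold), and their summed level was 532 to 549 CPM in SD and 1018 to 1065 CPM in Ctrl. Macrophage markers fell in 5 and rose in 1 of 7 cases, with sums of 163 to 175 CPM in SD and 443 to 457 CPM in Ctrl. Atp6v0d2 and Ctsk, a proton pump subunit and a protease, fell 6.01-fold and 3.44-fold.

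T cell markers were the other lymphocyte list with rows in the table. Of 24 listed, 8 were tested, 5 rose, 0 fell and 3 did not pass (median 0.63), with sums of 68.0 to 75.5 CPM in SD and 41.8 to 44.4 CPM in Ctrl. Lck, the kinase of the T cell receptor, averaged 16.1 ± 2.17 CPM in SD and 7.26 ± 1.46 CPM in Ctrl (2.21-fold, limma adjusted p = 1.8e-05), and its partner kinase Zap70 rose 2.15-fold. Cd3e, which defines T cells, stood at 2.92, 3.59 and 1.05 CPM in SD and at 0.552, 1.08 and 0.570 CPM in Ctrl, with overlap, and passed at a limma adjusted p of 0.013. Without SD replicate 1, 3 of the 8 passed, since Cd3e and Trac, the T cell receptor alpha constant gene, did not (limma adjusted p = 0.057 and 0.073). Cd3e also lost its call without SD replicate 2 (limma adjusted p = 0.092) and Trac without Ctrl replicate 1 (limma adjusted p = 0.074). None of the 12 NK cell markers had a row.

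Stromal and vessel markers were set beside Ebf1, which stromal cells can express, and their part in its level was not tested. Pericyte and smooth muscle markers rose in 12 and fell in 1 of 15 tested cases, with sums of 1233 to 1271 CPM in SD and 483 to 498 CPM in Ctrl. Tagln and Acta2, smooth muscle contractile genes, rose 2.75-fold and 2.93-fold, while Pdgfrb, which defines pericytes, averaged 14.2 ± 1.01 CPM in SD and 15.3 ± 2.87 CPM in Ctrl and did not pass. Fibroblast markers rose in 7 and fell in 4 of 17 cases, with overlapping sums of 2657 to 2704 CPM in SD and 2601 to 2664 CPM in Ctrl. Pdgfra, which defines fibroblasts, rose 3.54-fold, and Mfap4, a matrix protein, 2.53-fold. The 4 that fell were the collagen genes Col3a1 (1.48-fold), Col1a1 (1.49-fold) and Col1a2 (1.25-fold) and the matrix protein gene Npnt (1.57-fold), so the list holds abundant markers that went the opposite way to Pdgfra. Per kb of exon, Ebf1 stood at 0.145, 0.111 and 0.139 times Pdgfra in SD and at 0.191, 0.134 and 0.150 times Pdgfra in Ctrl, with overlap. Ebf1 was chosen for its rise and Pdgfra also rose, whereas Pdgfrb and the collagen genes did not. The ratio therefore depends on the marker used, and nothing is read from its overlap. Endothelial markers rose in 13 of 13 cases, Ramp2 4.89-fold and Eng 4.37-fold, with sums of 3811 to 3943 CPM in SD and 1322 to 1374 CPM in Ctrl; Tek, a vessel receptor among the 13, is in the first 60 rows with values that are not whole reads. Ciliated cell markers rose in 10 of 10, Tppp3 3.83-fold and Foxj1 3.57-fold.

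Genes whose pattern over the 6 libraries was most like each of the 4 were named by Pearson's r of log2(CPM + 1) among 7969 genes with a mean of at least 5 CPM. The 2 groups separate the libraries, so r mainly reflects the difference between them and is given as a description. For Pax5 these were Cnn3, an actin-binding calponin, Gpx2, a glutathione peroxidase, and Ace, the angiotensin-converting enzyme, at r of 0.9997, 0.9992 and 0.9991 (n = 6 libraries, description). For Ebf1 they were Rbfox3, a splicing factor of neurons, Acap1, which acts on Arf GTPases, and Mapk8ip3, a JNK scaffold (0.9984, 0.9974 and 0.9972). For Ighm they were Rasal2, a Ras GTPase-activating protein, Baz2b, a bromodomain protein, and Pcdh7, a protocadherin (0.9979, 0.9951 and 0.9951). For Cd79a they were Eva1b, the deubiquitinase Usp7 and the ubiquitin ligase Rnf220 (0.9981, 0.9959 and 0.9956). An r over 0.95 was reached by 1183 genes for Pax5, 775 for Ebf1, 739 for Ighm and 362 for Cd79a. No gene of the B cell lists was among the 12 named, and with so many genes over 0.95 nothing is read from that.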

How the data were processed

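RNA-seq was done on 6 lung tumour libraries, 3 SD and 3 Ctrl, from 1.5 ug of total RNA each with a NEBNext Ultra kit, per the labels' protocols. HISAT2 2.0.5 and featureCounts 1.5.0-p3 are named with build mm10 per the submitters' processing notes, without settings. The authors deposited CPM values of 10191 genes in a single table whose headers name the 6 libraries. The sources used here do not say how its rows were chosen. Whole reads could be recovered for 61022 of 61146 values (99.8%, tolerance 0.01 read). Genes were named by their Ensembl IDs for 10190 of 10191, and exon lengths are unions of the exons in GENCODE vM21, which uses the same build; promoters are from RefSeq.

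The 10004 genes that reached 1 CPM in 3 or more libraries were compared between SD and Ctrl by limma-trend (limma 3.58.1, R 4.3.3) after a log2(CPM + 1) transform, with p-values adjusted by Benjamini-Hochberg. Fold changes on that scale understate changes of low genes; folds given as "-fold" are ratios of mean CPM. edgeR 4.0.16 on recovered reads called 5655 and DESeq2 1.42.0 called 5234 of the 10004. The procedure was also run on simulated data in which few genes changed, unlike the data here, so that run is not used as support for the calls. The members, lists and rules were chosen with earlier results of these data known, so no list was tested as a set. Named from each list were the genes with the 4 smallest p (2 for other cell types) and all rows of short B cell lists. Cd79b, Cd3e, Ptprc, Pdgfra and Pdgfrb were named as defining markers. Tcf3, Tcf12, Bcl6, Pou2f2, Bach2, Pou2af1, Myb, Bcl11a, Foxo1, Ikzf1, Irf8, Prkcb, Fyn, Vav3, Syk, Lyn, Blnk, Cxcl12, Trac, Tek, Col3a1, Col1a1, Col1a2 and Npnt were added once their values had been seen. Rgs5 was added in the same way. A few items that these rules would name are not reported here. Alternatives covered pseudocounts, filters, scalings, count tests, a replicate block, the first 60 rows and leaving out each library.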

Additional observations from a re-analysis of the deposited data

How the results depend on the processing

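The count of 5667 called genes stayed within 1.5 times under all 16 alternatives, from 5057 without Ctrl replicate 3 to 5685 without a filter. The difference of the 4 genes kept its sign in each. On log2(CPM + 1) it was 2.26 for Pax5 and 1.12 for Ighm, and it was larger for Pax5 with a pseudocount of 0.1 (2.51), with edgeR (2.52) and with DESeq2 (2.53), and for Ighm likewise (1.34, 1.33 and 1.35). A pseudocount shrinks low values by construction. Leaving out 1 library gave 2.18 to 2.39 for Pax5, 1.36 to 1.61 for Ebf1, 0.97 to 1.20 for Ighm and 0.89 to 1.14 for Cd79a. Of the 17 lists followed, plasma cell genes went to 6 called of 9 with quantile normalization, against 3, and T cell markers to 3 called, against 5, with a filter of 5 CPM, which tests fewer genes. Leaving out 1 library gave 3 to 5 called T cell markers and 3 to 4 plasma cell genes; the cause was not tested. Replicate numbers did not pair the libraries (correlations of deviations -0.0074, -0.019 and 0.012, with 2 of 6 libraries closest to their own number), and the replicate block called 5603 genes. Among 82 genes followed and 1299 gene and setting pairs, 25 lost and 12 gained a call and 15 changed sign, all 15 in genes that had not passed. Leaving out 1 library, Ccr7 ran from -0.35 to 0.069, Cd37 from -0.23 to 0.0078, Cxcl12 from -0.13 to 0.10, Derl3 from -0.28 to 0.30, Flt3 from -0.0076 to 0.36, Pax6 from -0.081 to 0.36, Pdgfrb from -0.19 to 0.049 and Rfxank from -0.59 to 0.11. Derl3 was at 0.026 with edgeR and 0.033 with DESeq2. Changes of genes near 1 CPM are limited by depth.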
